A study of Mus musculus with 128 samples.

Results

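The comparison set livers of C57BL6/J mice that drank fructose against livers of C57BL6/J mice that drank plain water, both taken 3 h after the start of a meal. The libraries were chosen by the strain, drink and time in the sample labels, which gave 5 fructose and 5 water libraries out of 128 liver RNA-seq libraries in the series. All were wild-type males, 8 weeks old when bought, that spent 1 week on a schedule of timed fasting and feeding and then fasted for 21 h. Drinking water was taken away at 4 pm on the last day, and at 7 pm both groups received the same regular chow, with 10% of its calories from fat and 64.5% from carbohydrate. The bottles of the fructose group held 20% fructose, and those of the water group held no added sugar. Both groups were therefore refed, and the labelled difference between them was the drink; the labels do not say how much each mouse ate or drank. The other groups set beside them, each of 5 libraries, were BALB/c mice given fructose or water for 3 h, C57BL6/J mice given 20% glucose or 20% sucrose for 3 h, C57BL6/J mice given fructose or water for 6 or 12 h, and C57BL6/J mice killed at 0 h. The labels number the libraries of a group as replicates. The p-values measure only the spread between libraries within groups, estimated over all 128 libraries of the series.

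Fructose that reaches the liver is taken up through hexose transporters, phosphorylated by ketohexokinase (Khk) and split into trioses, a route that bypasses phosphofructokinase, the main control point of glycolysis. Sugar metabolites activate the transcription factor ChREBP (gene Mlxipl), which binds E-box-like elements and drives genes of glycolysis, lipid synthesis and the secreted hormone Fgf21. The hepatocyte also makes secreted proteins in large amounts and relies on chaperones of the endoplasmic reticulum (ER) and on a degradation system that clears misfolded ER proteins.

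The promoters of 5 genes are shown because these genes carry the results below and because each holds a motif of a factor known to act on such genes. They are the 250 bases before the gene start in RefSeq (GRCm38.p6), written along the gene's own strand, with 1 motif in capitals. Fgf21 (chr7:45615491-45615740, minus strand) and Arrdc4 (chr7:68749239-68749488, minus strand) are ChREBP targets, and the capitals mark the palindromic E-box CACGTG, which ends 45 bases upstream of the start in Fgf21 and 188 bases upstream in Arrdc4. Herpud1 (chr8:94386179-94386428, plus strand) and Derl3 (chr10:75893148-75893397, plus strand) encode parts of the ER degradation system. The capitals mark ER stress element II (ATTGGNCCACG) 42 bases upstream in Herpud1, and ER stress element I (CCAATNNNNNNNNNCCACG, here on the reverse strand) 138 bases upstream in Derl3. Actg1 (chr11:120348496-120348745, minus strand) encodes cytoplasmic gamma-actin, and the capitals mark the CArG box of serum response factor 81 bases upstream.
Fgf21: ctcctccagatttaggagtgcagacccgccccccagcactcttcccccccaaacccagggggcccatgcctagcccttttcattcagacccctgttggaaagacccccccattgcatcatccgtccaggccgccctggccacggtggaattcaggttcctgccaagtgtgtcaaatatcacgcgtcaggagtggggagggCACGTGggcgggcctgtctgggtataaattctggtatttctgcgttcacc
Arrdc4: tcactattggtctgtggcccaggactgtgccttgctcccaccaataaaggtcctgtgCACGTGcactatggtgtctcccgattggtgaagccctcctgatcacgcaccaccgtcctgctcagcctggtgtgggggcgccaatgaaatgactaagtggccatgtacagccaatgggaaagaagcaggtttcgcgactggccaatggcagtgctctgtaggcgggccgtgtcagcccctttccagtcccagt
Herpud1: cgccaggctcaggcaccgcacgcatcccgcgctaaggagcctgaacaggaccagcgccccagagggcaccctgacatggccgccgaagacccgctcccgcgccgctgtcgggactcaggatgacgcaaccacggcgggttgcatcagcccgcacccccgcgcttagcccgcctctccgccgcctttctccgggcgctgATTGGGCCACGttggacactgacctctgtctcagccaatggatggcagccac
Derl3: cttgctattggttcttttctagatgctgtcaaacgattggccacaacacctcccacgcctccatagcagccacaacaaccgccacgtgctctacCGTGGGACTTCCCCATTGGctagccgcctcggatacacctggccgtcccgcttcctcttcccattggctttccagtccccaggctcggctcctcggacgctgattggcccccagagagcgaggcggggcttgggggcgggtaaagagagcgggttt
Actg1: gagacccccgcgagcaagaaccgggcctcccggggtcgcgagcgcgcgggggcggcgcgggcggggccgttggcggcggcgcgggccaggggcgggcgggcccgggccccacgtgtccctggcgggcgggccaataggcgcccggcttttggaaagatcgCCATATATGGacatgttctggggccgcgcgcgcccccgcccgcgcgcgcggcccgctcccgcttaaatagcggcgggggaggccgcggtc
Both strands were searched in 27025 promoters of this length: 6.05% held the E-box, 0.122% ER stress element I, 0.0333% ER stress element II and 1.4% a CArG box. The Derl3 and Actg1 windows also hold an E-box, and the Arrdc4 window a CArG box, outside the capitals. Of the 24 genes of an ER stress list, 21 had a promoter in the table; ER stress element I was found in 9 of them (Hspa5, Hsp90b1, Calr, Canx, Pdia6, Dnajc3, Creld2, Syvn1 and Derl3) and ER stress element II in 1, Herpud1. Of 18 genes of a ChREBP list, 14 matched, and the E-box was found in 3, Mlx, Arrdc4 and Fgf21. The longer carbohydrate response element, present in 0.411% of all promoters, was found in 0 of the 14. Of 32 actin and linked genes 27 matched, and a CArG box was found in 5, Actg1, Acta1, Vcl, Myl9 and Srf. Among ER stress members with a promoter that passed the fructose test given below, 2 of 6 held element I (Syvn1 and Derl3) and 1 element II. Among such members of the ChREBP list 2 of 4 held the E-box, and of the actin list 1 of 3 held a CArG box. The windows of G6pc, Pklr, Rgs16, Txnip, Fasn and Ulk1 held none of these motifs. A match describes the letters of these windows and is not a binding site measured here.

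The 10 libraries held 19840501 to 29873232 reads counted in genes, and 16886 of the 35275 genes in the table passed the filter on low counts. Values below are CPM, read counts scaled to a common library size with edgeR's trimmed mean of M-values. The liver label was borne out by 5 hepatocyte markers (Alb, Apoa1, Ttr, Cps1 and Cyp2e1), whose summed level was 63457 to 134046 CPM in fructose livers and 47189 to 109305 CPM in water livers. Water replicate 4 stood apart on the first principal component, at 62.9 against -24 to 12.1 for the other 9 libraries; it had the lowest hepatocyte sum, and its 5 cholangiocyte markers summed to 164 CPM, against 47.5 to 52.9 CPM in the other water livers and 42.4 to 71.4 CPM in fructose livers. Skeletal muscle markers summed to 2.52 to 402 CPM in fructose livers and 2.78 to 64.5 CPM in water livers. No listed marker of 14 cell types or tissues other than the cholangiocyte keratin Krt19 passed the test between the groups; in bulk tissue, fewer cells of a type and less RNA per cell cannot be told apart. Fructose replicate 5 and water replicates 2 and 5 carry a letter suffix in their sample names, which the labels do not explain.

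In edgeR's quasi-likelihood test at a Benjamini-Hochberg adjusted p under 0.05, 676 of 16886 genes (4.00%) differed between fructose and water livers, 366 of them higher with fructose (2.17%) and 310 lower (1.84%). Adjusted p-values below come from that edgeR test unless DESeq2 is named. Rose and fell mean higher or lower in fructose livers than in water livers, not a change over time. The change was at least 2-fold for 210 of the genes (1.24%), 97 higher (0.574%) and 113 lower (0.669%). Across all tested genes the median log2 fold change was -0.006, and among the called genes the median size was 0.78. The 5 fructose libraries lay wholly above the 5 water libraries for 429 genes (2.54%) and wholly below for 391 (2.32%), and 420 of the 676 called genes were among these. A fit that dropped the suffix libraries of all groups, and so kept 7 of the 10, gave 134 calls, 59 higher and 75 lower. Of these, 130 were also called with all 10. Counts below for the 7 libraries come from that fit. With the suffix as a factor and no library dropped, 875 genes were called, 673 of them shared. Leaving out water replicate 4 gave 680 calls, 503 of them shared.

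**Figure D1:**
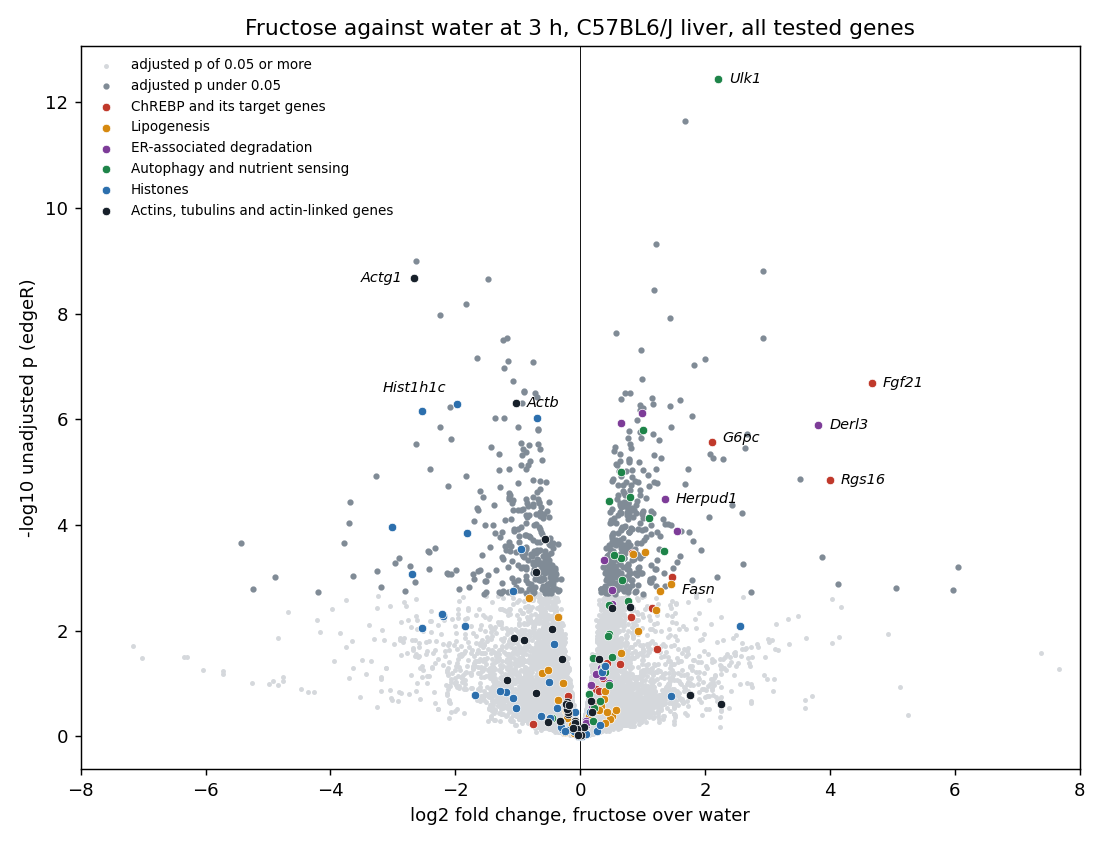
Each point is 1 of the 16886 tested genes in C57BL6/J liver at 3 h, with the log2 fold change of fructose over water on the x axis and -log10 of edgeR's p-value on the y axis; dark grey points are called genes and coloured points are members of 6 gene lists. Fgf21, Rgs16 and Derl3 lie farthest to the right among the labelled genes, and Ulk1 has the smallest p-value.

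The fructolysis genes differed unevenly. Of 13 genes of fructose uptake and breakdown, 2 rose with fructose (15.4%), among them Dak, and 11 did not pass the test. Of all tested genes 2.17% were called higher. The median log2 fold change of the 13 was 0.08, beside -0.006 for all genes. Dak (ENSMUSG00000034371, chromosome 19, 10592200 to 10604258, minus strand in mm10), the triokinase that phosphorylates the glyceraldehyde released from fructose, had 590.1, 711, 1057, 1324 and 1146 CPM in the 5 fructose livers and 422, 468, 422, 305 and 431 CPM in the 5 water livers. The groups did not overlap, and the log2 fold change was 1.24 ± 0.31 (SE, adjusted p = 0.00856). Khk, which starts the pathway, had a log2 fold change of 0.39 ± 0.23 and did not pass (adjusted p = 0.452). The glucose and fructose transporter Slc2a2 (0.42 ± 0.28, adjusted p = 0.523) and the fructose transporter Slc2a5 (0.20 ± 0.32, adjusted p = 0.871) did not pass either. Per length, in the deposited FPKM, Khk stood at 546 ± 120.1 in fructose livers and 436 ± 39.9 in water livers (SD, n = 5 each), Dak at 408 ± 115 in fructose and 181 ± 19.7 in water livers, Slc2a2 at 70.6 ± 16.6 in fructose and 54.7 ± 13.8 in water livers, and Slc2a5 at 0.986 ± 0.397 in fructose and 0.900 ± 0.166 in water livers. Slc2a5 was thus listed far below the other 3 in both groups.

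ChREBP itself did not pass the test, but 5 of the 18 genes on its list rose: Fgf21, Rgs16, G6pc, Klf10 and Arrdc4. None fell, 16 of the 18 estimates were positive, and the median log2 fold change was 0.54. The 5 calls were 27.8% of the list, where 2.17% of all tested genes were called higher. Without fructose replicate 3 or without fructose replicate 4 the list had 3 calls. Fgf21 (ENSMUSG00000030827, chromosome 7, 45613907 to 45615490, minus strand), a hormone secreted by the liver that lowers sugar preference, had 1.35, 7.19, 13.8, 8.03 and 5.61 CPM in the 5 fructose livers and 0.215, 0.0796, 0.663, 0.0403 and 0.431 CPM in the 5 water livers. These rest on 32, 151, 270, 153 and 135 reads in fructose livers and 5, 2, 13, 1 and 12 reads in water livers. All fructose libraries were above all water libraries, and fructose replicate 1 was the lowest of its group. The log2 fold change was 4.67 ± 0.84 (adjusted p = 0.00014), with a 95% interval of 3.02 to 6.31 on the log2 scale, which is a 25.4-fold difference at the estimate. Rgs16 (ENSMUSG00000026475, chromosome 1, 153740349 to 153745468, plus strand), a regulator that shortens G-protein signalling, had 3.53, 14.9, 143, 68.3 and 78.7 CPM in the 5 fructose livers and 2.71, 3.66, 4.64, 3.31 and 4.89 CPM in the 5 water livers. The groups overlapped, because fructose replicate 1 lay within the range of the water livers. The log2 fold change was 4.00 ± 0.88 (adjusted p = 0.00197). Rgs16 overlaps an unnamed gene model on the annotation.

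G6pc (ENSMUSG00000078650, chromosome 11, 101367561 to 101377903, plus strand) encodes the catalytic subunit of glucose-6-phosphatase, which releases free glucose. It had 187, 286, 607, 449 and 502 CPM in the 5 fructose livers and 89.4, 91.0, 119.8, 45.1 and 126 CPM in the 5 water livers. The groups did not overlap, and the log2 fold change was 2.11 ± 0.42 (adjusted p = 0.000663). Klf10, a zinc finger repressor, had a log2 fold change of 1.47 ± 0.43 (adjusted p = 0.0309), and its adjusted p was 0.0505 to 0.0997 when fructose replicate 3, 4 or 5, or water replicate 1, 2, 4 or 5 was left out. For Arrdc4, an arrestin-domain protein that limits glucose uptake, it was 0.83 ± 0.23 (adjusted p = 0.0161), with an adjusted p of 0.0963 without fructose replicate 3 and 0.0591 without fructose replicate 4. Mlxipl averaged 922 ± 366 CPM in fructose livers and 590.3 ± 267 CPM in water livers (SD, n = 5 each; log2 fold change 0.64 ± 0.31, adjusted p = 0.296). Pklr, the liver pyruvate kinase, had 173, 154, 293, 224 and 449 CPM in the 5 fructose livers and 98.9, 155, 89.1, 61.8 and 148 CPM in the 5 water livers. The log2 fold change was 1.23 ± 0.53 and did not pass (adjusted p = 0.216). Hcn3, a channel gene that overlaps Pklr on the opposite strand, did pass, at 2.64 ± 0.54 (adjusted p = 0.000766); the labels do not say whether the counting used strand, so reads of these overlapping genes cannot be told apart. Txnip, a further arrestin gene and ChREBP target, had 1.15 ± 0.39 (adjusted p = 0.0748); its adjusted p was 0.0344 without fructose replicate 1.

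**Figure D2:**
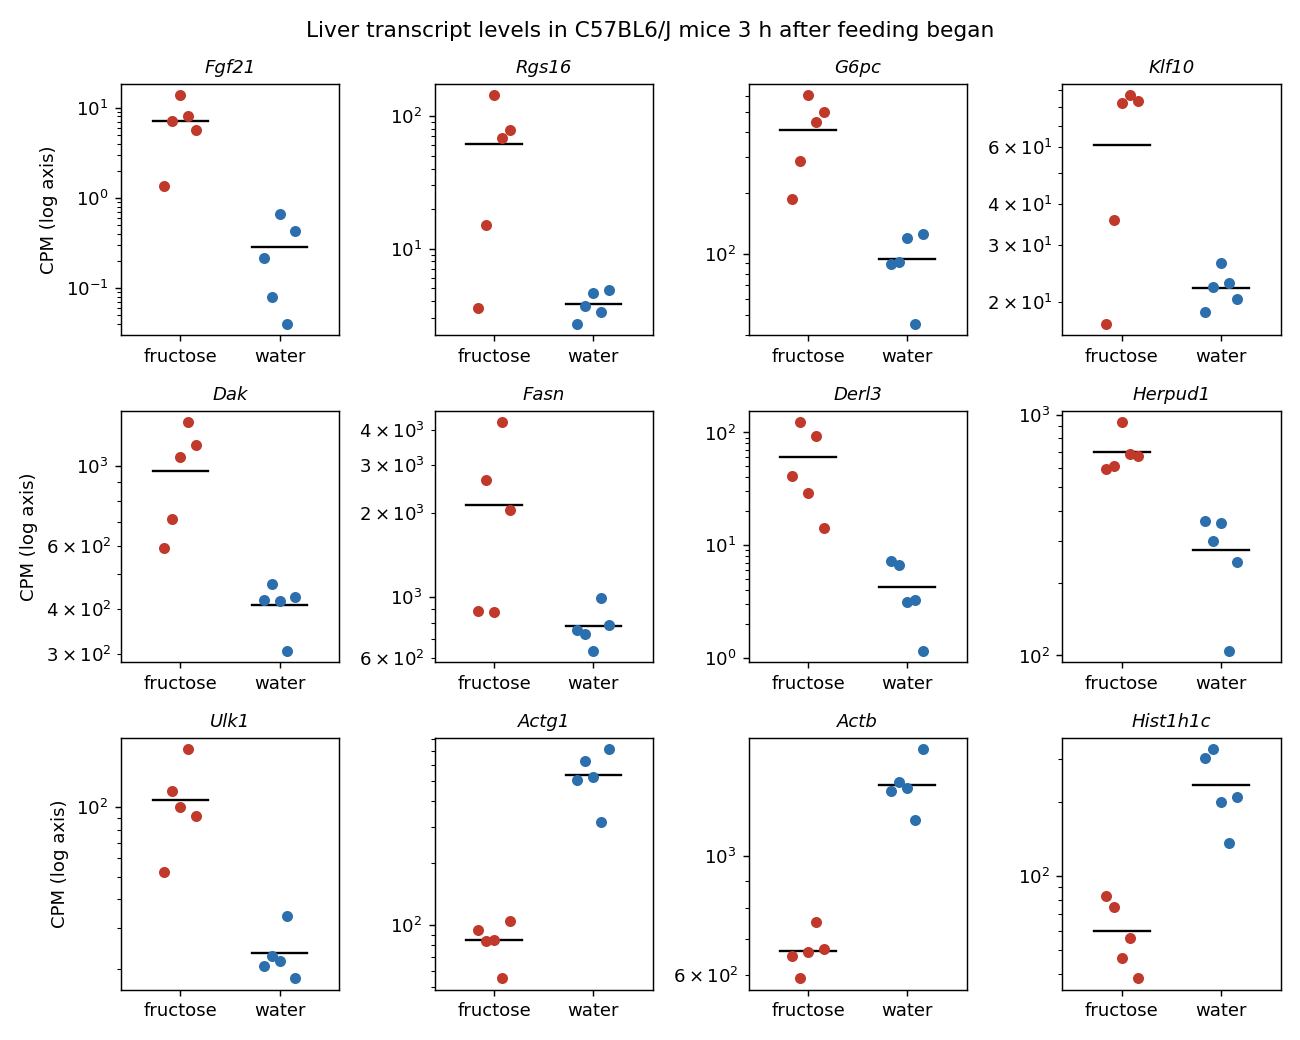
CPM on a log axis of selected genes in each C57BL6/J library at 3 h, fructose left and water right in each panel; points are libraries and bars are group means. For Fgf21, Ulk1 and Dak all 5 fructose points lie above all 5 water points, and for Actg1 and Hist1h1c all 5 lie below.

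Lipid synthesis showed 4 calls in a list of 35 (11.4%), where 2.17% of all tested genes were called higher. Fasn (fatty acid synthase), Acly (ATP citrate lyase, which supplies cytosolic acetyl-CoA), Acaca (acetyl-CoA carboxylase) and Acsl3 (an acyl-CoA synthetase) rose, none fell, and the median log2 fold change of the 35 was 0.14. Fasn had 885, 2630.4, 878, 4271 and 2054 CPM in the 5 fructose livers and 759, 729.8, 635, 988 and 791 CPM in the 5 water livers. The groups overlapped, the log2 fold change was 1.46 ± 0.44 (adjusted p = 0.0383), and the adjusted p was 0.0523 to 0.25 when fructose replicate 2, 4 or 5, or water replicate 1, 2, 3 or 5 was left out. For Acly the log2 fold change was 1.28 ± 0.40 (adjusted p = 0.0465), with 0.0561 to 0.437 when fructose replicate 4 or 5, or water replicate 1, 2, 3, 4 or 5 was left out. For Acaca it was 1.04 ± 0.28 (adjusted p = 0.0155), with 0.0864 without fructose replicate 4 and 0.0828 without fructose replicate 5. For Acsl3 it was 0.84 ± 0.23 (adjusted p = 0.0165), with 0.0597 without fructose replicate 2 and 0.0996 without fructose replicate 4. The lipogenesis list had 2 calls without fructose replicate 2, 0 calls without fructose replicate 4, 1 call without fructose replicate 5, 2 calls without water replicate 1 and 2 calls without water replicate 2, all of them higher; it had 2 higher and 1 lower without water replicate 3 and without water replicate 5, and 0 in the 7 libraries without the name suffix. Elovl6, which elongates the products of Fasn, had 1.21 ± 0.41 (adjusted p = 0.0776), and 0.0381 without fructose replicate 1. Log2 fold changes of the other lipogenic genes of the panel were 0.40 for the regulator Srebf1, 0.48 for the desaturase Scd1, 0.65 for malic enzyme (Me1), 0.43 for Thrsp and 0.58 for Pnpla3, and none of the 5 passed.

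In the pentose phosphate list 2 of 11 rose, where 2.17% of all tested genes were called higher: Pgd, which makes NADPH (0.78 ± 0.20, adjusted p = 0.00856), and Rpia, which isomerises ribose phosphate (0.83 ± 0.22, adjusted p = 0.0151). Their adjusted p was 0.189 without fructose replicate 4 for Pgd, and 0.219 without fructose replicate 4 and 0.0598 without water replicate 1 for Rpia, so that the list had 0 calls without fructose replicate 4. In glycolysis 1 of 28 rose, Gpi1, the phosphoglucose isomerase (0.98 ± 0.19, adjusted p = 0.000473). In glycogen metabolism 1 of 18 rose, Phkg2, a subunit of phosphorylase kinase (0.69 ± 0.16, adjusted p = 0.00268). The list of 28 gluconeogenesis and FoxO genes left out G6pc, which was counted in the ChREBP list and rose as given above. None of the 28 passed in edgeR, 4 were higher and 1 lower at an unadjusted p under 0.05, and DESeq2 called 1. In that list, Pck1, which commits oxaloacetate to glucose, had 1.40 ± 0.64 (adjusted p = 0.261), the insulin-repressed Igfbp1 1.27 ± 1.10 (adjusted p = 0.688), and the coactivator Ppargc1a 0.21 ± 0.36 (adjusted p = 0.885).

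Genes of the ER were higher with fructose in a pair of overlapping lists. Of 24 ER stress genes 6 rose (25%), where 2.17% of all tested genes were called higher. None fell, 23 of 24 estimates were positive and the median log2 fold change was 0.50. Of 21 genes of ER-associated degradation, a list drawn up after values were seen, 7 rose (33.3%) and the median was 0.33. Both counts hold 4 of the same genes. Derl3 (ENSMUSG00000009092, chromosome 10, 75893398 to 75895941, plus strand), a derlin of the channel that exports misfolded proteins, had 40.9, 123, 29.2, 93.6 and 14.1 CPM in the 5 fructose livers and 7.26, 6.61, 3.11, 3.27 and 1.15 CPM in the 5 water livers. The groups did not overlap, and fructose replicates 2 and 4 were the highest. Its log2 fold change was 3.81 ± 0.74 (adjusted p = 0.000418). Herpud1, a membrane protein that holds the degradation complex together, had 596, 613, 930.3, 685 and 674 CPM in the 5 fructose livers and 364, 299, 355, 104 and 244 CPM in the 5 water livers. The groups did not overlap, water replicate 4 was the lowest of all, and the log2 fold change was 1.36 ± 0.31 (adjusted p = 0.0035). Sel1l, the adaptor of the ubiquitin ligase in that complex, had 0.98 ± 0.19 (adjusted p = 0.000288), Derl2 had 0.66 ± 0.13 (adjusted p = 0.000394) and Ern1, the ER stress sensor kinase IRE1, had 0.92 ± 0.23 (adjusted p = 0.00792; 0.083 without fructose replicate 5). The ligase Syvn1, named after its values were seen, had 665, 1413, 542, 1497 and 366 CPM in the 5 fructose livers and 396, 372, 281, 334 and 143 CPM in the 5 water livers, and a log2 fold change of 1.55 ± 0.39 (adjusted p = 0.00845). Its groups overlapped. Hspa5, the main ER chaperone, also named after its values were seen, had 0.57 ± 0.32 and did not pass (adjusted p = 0.416). Without fructose replicate 4 the degradation list had 4 calls. Without water replicate 4 each list had 5 calls, with a median of 0.325 for ER stress and 0.189 for degradation. The adjusted p was then 0.0834 for the disulfide isomerase Pdia4 of the ER stress list, and 0.0919 for Edem2, which helps send misfolded glycoproteins to degradation, and 0.16 for Selk of the degradation list, all 3 called with all libraries. Fructose replicates 2 and 4, the highest for Derl3 and Syvn1, also had the highest mitochondrial share of reads, 7.05% and 8.36%, against 3.7% to 5.86% in the other fructose livers and 4.43% to 6.76% in water livers; the part of this in the result was not tested. Of 21 genes of the ATF4 and CHOP response 2 rose, the stress-induced Sesn2, given below, and the phosphatase subunit Ppp1r15a (0.83 ± 0.20, adjusted p = 0.00434).

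Autophagy and nutrient sensing genes were higher with fructose in a list of 29 drawn up after values were seen. Of these, 10 rose (34.5%), where 2.17% of all tested genes were called higher. None fell, 28 of 29 estimates were positive and the median log2 fold change was 0.46. Ulk1 (ENSMUSG00000029512, chromosome 5, 110784488 to 110810097, minus strand), the kinase that starts autophagosome formation, had 52.5, 117, 101, 178 and 91.4 CPM in the 5 fructose livers and 20.4, 22.6, 21.5, 33.9 and 18.2 CPM in the 5 water livers. Every fructose library was above every water library. Its log2 fold change of 2.21 ± 0.27 had the smallest p-value of all genes (adjusted p = 6.11e-09). Fnip2, a folliculin partner in lysosomal nutrient sensing, had 1.01 ± 0.20 (adjusted p = 0.000473). Atg14, a subunit of the lipid kinase that nucleates autophagosomes, had 0.81 ± 0.18 (adjusted p = 0.00329). For Sesn2, which restrains mTORC1, it was 1.10 ± 0.27 (adjusted p = 0.00553), and for Wdr59, a subunit of the GATOR complex, 0.66 ± 0.14 (adjusted p = 0.00152). With water replicate 4 left out the list had 10 calls, but not all of the same genes: Wipi1, which binds forming autophagosomes, no longer passed (adjusted p = 0.0806), and Flcn, folliculin, did (0.00566). The list had 7 calls without water replicate 3 and 4 with the 10 libraries fitted alone. In the 7 libraries without the name suffix it had 2 calls, the ER stress list 2, the degradation list 3 and the ChREBP list 2.

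**Figure D3:**
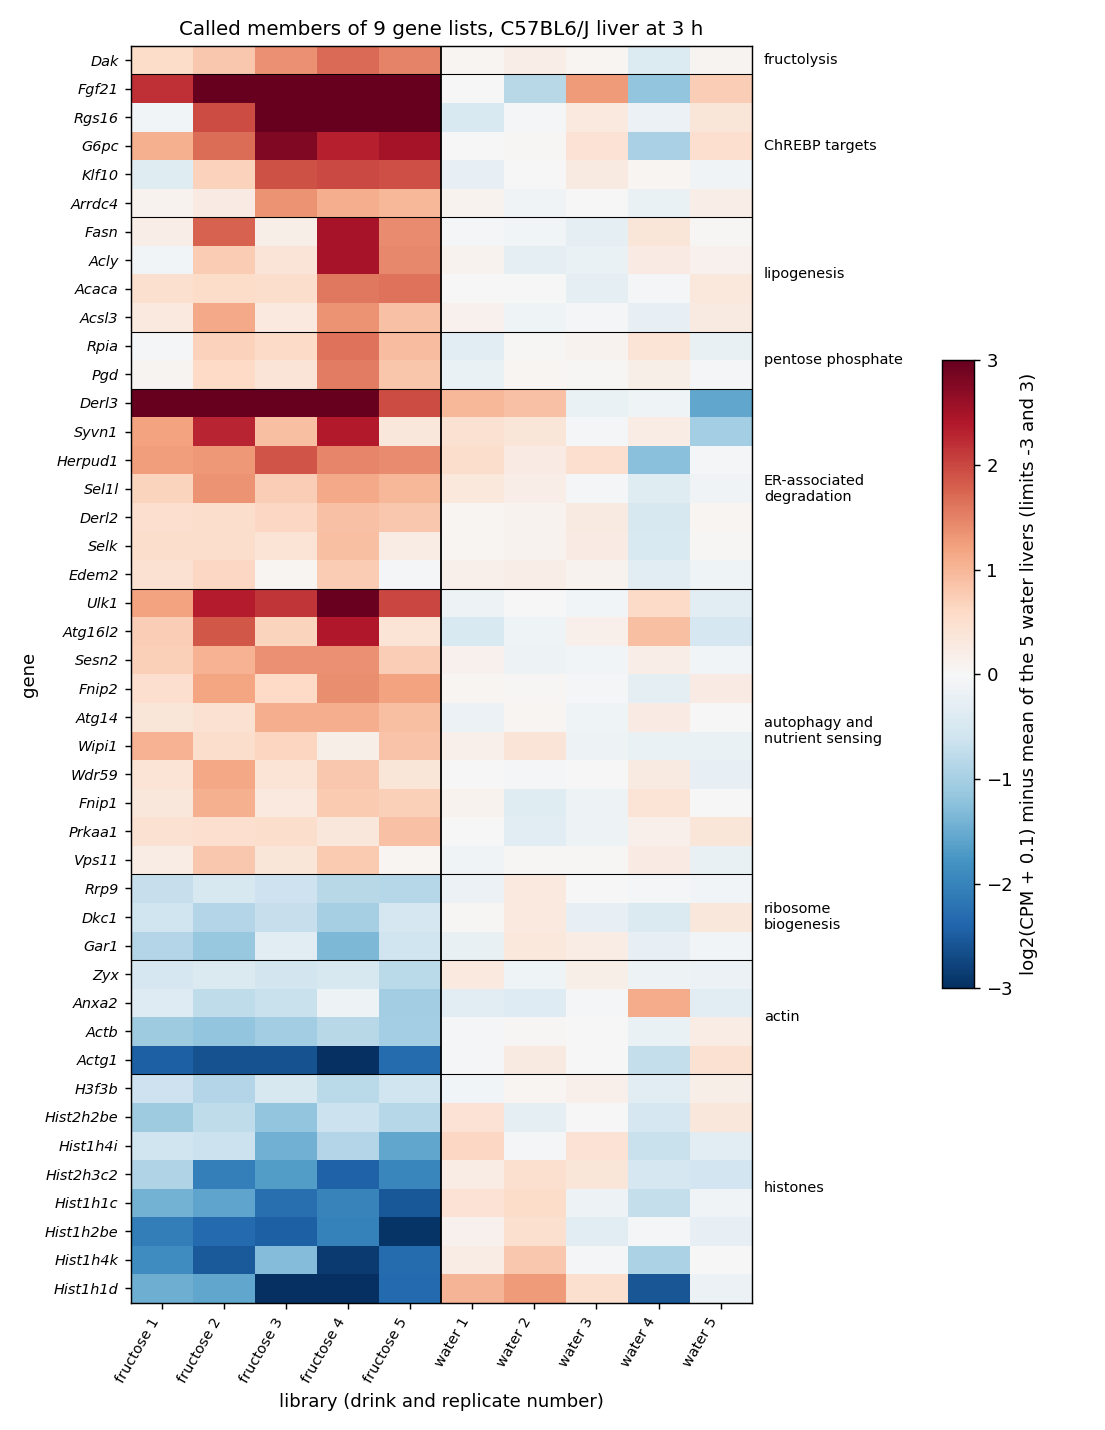
Log2 of CPM plus 0.1, relative to the mean of the 5 water libraries and capped at 3 either way, for 44 called genes of 9 gene lists (rows) in the 5 fructose libraries (left) and the 5 water libraries (right) of C57BL6/J at 3 h. The ER, autophagy and ChREBP rows are mostly higher in the fructose columns and the actin and histone rows lower, and fructose replicate 1 is the palest fructose column for Rgs16 and Klf10.

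The genes that were lower with fructose included cytoskeletal actins, histones and ribosome assembly factors. In a list of 32 actins, tubulins and linked genes, drawn up after values were seen, 4 fell (Actg1, Actb, Zyx and Anxa2), none rose and the median log2 fold change was -0.19. The 4 were 12.5% of the list, where 1.84% of all tested genes were called lower. Without water replicate 4 the list had 3 calls and a median of -0.009. Actg1 (ENSMUSG00000062825, chromosome 11, 120345690 to 120348542, minus strand) had 94.5, 84.3, 84.6, 55.4 and 105 CPM in the 5 fructose livers and 504, 624, 523, 318 and 712 CPM in the 5 water livers. All fructose libraries were below all water libraries, and water replicate 4 was the lowest of its group. The log2 fold change was -2.66 ± 0.41 (adjusted p = 5.35e-06). Actb, cytoplasmic beta-actin, had 651, 592, 661, 754 and 671 CPM in the 5 fructose livers and 1325, 1377, 1342, 1169 and 1582 CPM in the 5 water livers. The log2 fold change was -1.03 ± 0.19 (adjusted p = 0.000231). Zyx, a focal adhesion protein, had -0.56 ± 0.14 (adjusted p = 0.0108; 0.0579 without water replicate 1). Anxa2, which binds actin at membranes, had -0.71 ± 0.20 (adjusted p = 0.0274), but -0.30 without water replicate 4, where the adjusted p was 0.497; it was 0.0642 to 0.497 when fructose replicate 2, 3 or 5, or water replicate 4 was left out. Actg1 and Actb have closely similar coding sequences, so the counting can move reads between them.

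Of 85 histone genes, 43 were tested, 8 fell and none rose, with a median log2 fold change of -0.37. The 8 were 18.6% of those tested, where 1.84% of all tested genes were called lower. This list too was drawn up after values were seen. The median was -0.23 without fructose replicate 5, and without water replicate 1 the list had 1 higher and 6 lower calls. Hist1h1c (ENSMUSG00000036181, chromosome 13, 23738808 to 23740367, plus strand), a linker histone, had 83.3, 74.7, 46.7, 56.2 and 38.5 CPM in the 5 fructose livers and 302, 327, 200.2, 136 and 209.8 CPM in the 5 water livers. The groups did not overlap, and the log2 fold change was -1.97 ± 0.37 (adjusted p = 0.000231). H3f3b, a replacement histone expressed outside S phase, had -0.69 ± 0.13 (adjusted p = 0.00033), Hist2h3c2 -1.81 ± 0.46 (adjusted p = 0.00869), Hist1h2be -2.54 ± 0.48 (adjusted p = 0.000271) and Hist1h1d -3.02 ± 0.75 (adjusted p = 0.0073). Histone genes have close copies, so their separate counts are uncertain. In ribosome biogenesis 3 of 26 fell (11.5%), 21 of 26 estimates were negative and the median was -0.26. The 3 were Dkc1, the pseudouridine synthase of box H/ACA particles (-0.76 ± 0.21, adjusted p = 0.0218), Gar1 of the same particles (-0.83 ± 0.23, adjusted p = 0.0192) and Rrp9 of box C/D particles (-0.70 ± 0.17, adjusted p = 0.00683). For Dkc1 the adjusted p was 0.0603 to 0.0912 when fructose replicate 2 or 4, or water replicate 2 or 5 was left out. For Gar1 it was 0.0674 to 0.09 when fructose replicate 2 or 4, or water replicate 2 was left out. The list had 1 call without fructose replicate 2 or 4 or water replicate 2. In the 7 libraries without the name suffix the actin list had 3 calls, the histones 4 and ribosome biogenesis 0.

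Among the 10 genes with the largest increases and the 10 with the largest decreases at a mean of at least 5 CPM, several belonged to no list. Tspyl2, a nucleosome assembly protein, had 43.2, 143, 33.2, 149 and 25.4 CPM in the 5 fructose livers and 19.3, 17.9, 16.9, 26.4 and 10.2 CPM in the 5 water livers, with groups that overlapped and a log2 fold change of 2.12 ± 0.44 (adjusted p = 0.00105). Lhx6, a homeodomain factor, had 1.79 ± 0.34 (adjusted p = 0.000322) and the pseudogene Gpr137b-ps 2.92 ± 0.49 (adjusted p = 3.45e-05). Igkc, the immunoglobulin kappa constant region made by B lineage cells, had 1.80 ± 0.54 (adjusted p = 0.0334), with an adjusted p of 0.0616 to 0.179 when fructose replicate 2, 3 or 4, or water replicate 1, 2, 4 or 5 was left out. Without water replicate 3 the log2 fold change of Igkc was 2.62. The 6 T and B cell markers summed to 1.85 to 3.76 CPM in fructose livers and 1.63 to 6.84 CPM in water livers. On the lower side, A1bg, a plasma glycoprotein, had 0.210, 0.428, 0.716, 0.105 and 1.62 CPM in the 5 fructose livers and 8.46, 26.4, 3.16, 0.846 and 4.60 CPM in the 5 water livers. Water replicate 2 was the highest, and without it the log2 fold change was -2.77 (adjusted p = 0.109, against 0.0121 with all); without fructose replicate 5 it was -4.57. Cdcp1, a membrane glycoprotein, had -2.25 ± 0.36 (adjusted p = 1.78e-05) and Rab36, a small GTPase, -1.55 ± 0.35 (adjusted p = 0.00333). Cdkn1a, the cell cycle inhibitor p21, had -1.60 ± 0.46 (adjusted p = 0.0257; 0.053 to 0.0685 when fructose replicate 1, 3 or 5, or water replicate 3 or 5 was left out), and the monocarboxylate carrier Slc16a5 had -1.51 ± 0.47 (adjusted p = 0.047; 0.0519 to 0.138 when fructose replicate 1, 2, 4 or 5, or water replicate 1, 2, 3, 4 or 5 was left out).

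The decreases of Krt19 and Igf1os rested on water replicate 4. Krt19, the cholangiocyte keratin, had 5.43, 4.76, 4.45, 5.98 and 2.78 CPM in the 5 fructose livers and 3.99, 3.62, 7.75, 83.5 and 3.81 CPM in the 5 water livers, with a log2 fold change of -2.13 ± 0.62 (adjusted p = 0.0274) that was -0.03 without that library (adjusted p = 0.991); its adjusted p was 0.059 to 0.991 when fructose replicate 2, 3 or 5, or water replicate 4 was left out. Igf1os, an antisense transcript that overlaps Igf1, had 3.66, 2.86, 0.971, 1.47 and 1.37 CPM in the 5 fructose livers and 1.46, 7.88, 2.04, 55.6 and 1.65 CPM in the 5 water livers, with -2.73 ± 0.77 (adjusted p = 0.0232) and -0.65 without it (adjusted p = 0.748); its adjusted p was 0.0614 to 0.748 when fructose replicate 3, 4 or 5, or water replicate 4 was left out. The same library had the highest cholangiocyte marker sum given above.

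Calls of 1 or 2 genes stood in several further lists, where 4.00% of all tested genes were called. Acot6, an acyl-CoA thioesterase, had 0.547, 0.571, 0.613, 0.157 and 0.457 CPM in the 5 fructose livers and 3.99, 2.63, 1.43, 2.499 and 4.13 CPM in the 5 water livers. No fructose library reached the lowest water library, and the log2 fold change was -2.63 ± 0.39 (adjusted p = 4.32e-06); it was the only call among 11 thioesterases tested. Odc1, the first enzyme of polyamine synthesis, had -1.09 ± 0.30 (adjusted p = 0.0195; 0.0542 to 0.0932 when fructose replicate 2 or 4, or water replicate 1 or 5 was left out), the purine enzyme Adsl -0.65 ± 0.16 (adjusted p = 0.00529), the interferon-induced Oasl1 -1.06 ± 0.27 (adjusted p = 0.00793) and histidase, Hal, -0.76 ± 0.21 (adjusted p = 0.0201; 0.051 to 0.111 when fructose replicate 1, 2 or 4, or water replicate 1 or 5 was left out). Higher with fructose were the myo-inositol carrier Slc5a3 (1.17 ± 0.28, adjusted p = 0.00492), the amino acid carrier Slc38a2 (1.18 ± 0.24, adjusted p = 0.000928), the phosphatase Dusp1 (1.11 ± 0.33, adjusted p = 0.0343; 0.0593 to 0.0864 when fructose replicate 2, 3 or 4, or water replicate 1, 2, 4 or 5 was left out) and the transcription factor Klf11 (1.46 ± 0.29, adjusted p = 0.000435). Odc1 was the only call of 10 polyamine genes, Adsl of 31 purine genes and Oasl1 of 20 interferon genes. Hal was the only call of 25 amino acid breakdown genes and Dusp1 of 22 immediate early genes. Slc5a3 and Slc38a2 were 2 of 8 osmolyte and amino acid carriers, and Klf11 was 1 of 2 calls among 14 Kruppel-like factors. The lists in which no member passed in edgeR were 8: gluconeogenesis (without G6pc), sterol synthesis, fatty acid oxidation, heat shock, clock, oxidative stress, acute phase and bile acid genes. They held 179 tested members in all. At an unadjusted p under 0.05, 12 of these were higher and 9 lower, and DESeq2 called 4 higher and 1 lower. The clock list gained 1 call without fructose replicate 1 or 5, fatty acid oxidation 1 without fructose replicate 3 and oxidative stress 1 without water replicate 3 or 4. Cyp7a1, the rate-limiting enzyme of bile acid synthesis, had -0.79 ± 0.45 (adjusted p = 0.405).

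The fructose response was set against that of BALB/c mice, with the difference between the strains tested as an interaction. At 3 h 1 gene of 16886 (0.00592%) passed in edgeR, 580 had an unadjusted p under 0.05, and DESeq2 called 11. The gene was Cym, chymosin, named after its values were seen, at -7.07 ± 1.36 (adjusted p = 0.0161); its levels were 0.0809, 0.136, 0.146, 0 and 32.5 CPM in the BALB/c fructose livers, where replicate 5 stood far above the rest, against 0.0765 to 0.848 CPM in BALB/c water livers, and 0 to 0.249 CPM in C57BL6/J fructose livers against 0.102 to 1.35 CPM in C57BL6/J water livers. The count was 0 when C57BL6/J fructose replicate 1, 2 or 4, or water replicate 2, was left out, and 2 without C57BL6/J fructose replicate 3. No BALB/c library was left out, so the part of BALB/c fructose replicate 5 in the Cym call was not tested. In BALB/c alone 22 genes (0.130%) were called between fructose and water, 14 higher (0.0829%) and 8 lower (0.0474%). The log2 fold change of Rgs16 was 4.00 ± 0.88 in C57BL6/J and 3.84 ± 0.90 in BALB/c, that of Ulk1 2.21 ± 0.27 in C57BL6/J and 1.56 ± 0.26 in BALB/c, and that of Fgf21 4.67 ± 0.84 in C57BL6/J and 2.88 ± 0.69 in BALB/c. Of the ER genes, Derl3 had 3.81 ± 0.74 in C57BL6/J and 0.25 ± 0.66 in BALB/c, Herpud1 1.36 ± 0.31 in C57BL6/J and 0.18 ± 0.31 in BALB/c, and Sel1l 0.98 ± 0.19 in C57BL6/J and -0.09 ± 0.19 in BALB/c. The test of the difference did not pass for Derl3 (3.56 ± 0.97, adjusted p = 0.38), Herpud1 (1.18 ± 0.44, adjusted p = 1) or Sel1l (1.07 ± 0.26, adjusted p = 0.31).

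**Figure D4:**
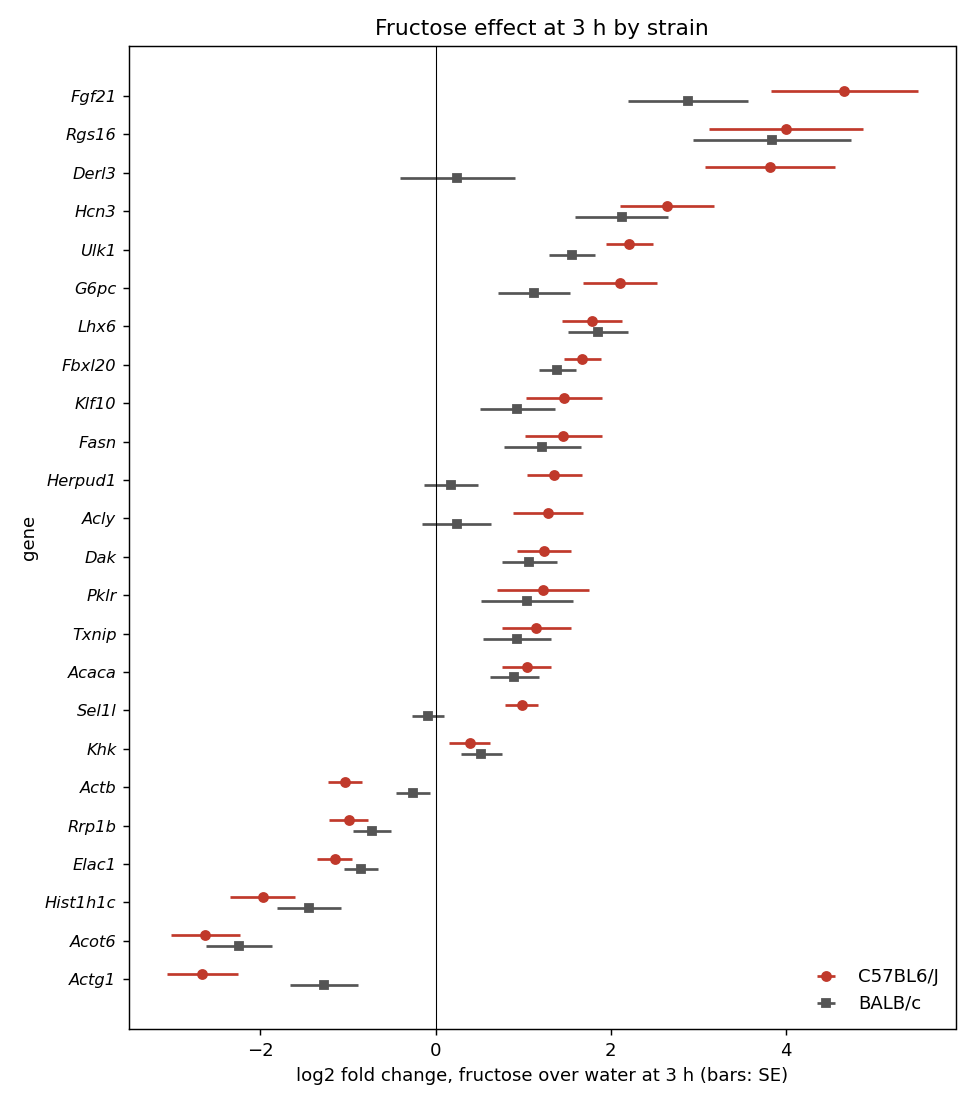
Log2 fold change of fructose over water at 3 h, with SE bars, for named genes in C57BL6/J and BALB/c mice. Rgs16, at 4.00 in C57BL6/J and 3.84 in BALB/c, lies close in the pair, while Derl3, at 3.81 in C57BL6/J and 0.25 in BALB/c, lies apart without passing the test of the difference.

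Between fructose and glucose drinks in C57BL6/J at 3 h, 213 genes (1.26%) differed, 85 higher with fructose (0.503%) and 128 lower (0.758%). G6pc had 187, 286, 607, 449 and 502 CPM in the 5 fructose livers and 146, 114, 37.0, 48.3 and 46.0 CPM in the 5 glucose livers. Every fructose library was above every glucose library, and the log2 fold change was 2.37 ± 0.43 (adjusted p = 0.000357). Fbxl20, a ubiquitin ligase subunit, had 19.7, 19.6, 25.8, 21.0 and 31.6 CPM in the fructose livers and 11.1, 11.8, 8.25, 8.61 and 9.49 CPM in the glucose livers. The groups did not overlap, and the log2 fold change was 1.26 ± 0.21 (adjusted p = 6.09e-05). The inflammatory genes Ripk2, Cxcl10 and Nfkbiz, and Igfbp1, were lower with fructose, and these rested on glucose replicate 1: without it the count of called genes was 68, none of the 4 was among them, and the log2 fold change of Igfbp1 was 1.52 (adjusted p = 0.704), against -4.43 ± 1.17 (adjusted p = 0.0326) with all libraries. The count was 113, 80, 114 and 126 without fructose replicate 1, 2, 4 and 5. Set against the same water livers, glucose gave 69 calls (0.409%), 64 higher (0.379%) and 5 lower (0.0296%), and sucrose, which holds fructose and glucose, gave 306 (1.81%), 180 higher (1.07%) and 126 lower (0.746%). Because the 3 drinks share the water libraries, their values are given side by side only. Fgf21 had 4.67 ± 0.84 with fructose, 5.48 ± 0.85 with sucrose and 4.52 ± 0.84 with glucose. Derl3 had 3.81 ± 0.74 with fructose, 3.82 ± 0.74 with sucrose and 2.55 ± 0.71 with glucose. Actg1 had -2.66 ± 0.41 with fructose, -2.13 ± 0.40 with sucrose and -0.75 ± 0.38 with glucose.

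The same drink comparison was also made at later times. Fructose against water gave 37 calls at 6 h (0.219%), 13 higher (0.0770%) and 24 lower (0.142%), and at 12 h 0 in edgeR, with 551 genes at an unadjusted p under 0.05. The difference between the 6 h and 3 h effects passed for 36 genes (0.213%), 19 more positive at 6 h (0.113%) and 17 more negative (0.101%). By that test the effect on Ypel2 changed by -1.63 ± 0.31 (adjusted p = 0.00348), on Fbxl20 by -1.47 ± 0.29 (adjusted p = 0.00577), on Zrsr1, a splicing factor, by -1.07 ± 0.21 (adjusted p = 0.00388), on the ribosome assembly factor Rrp1b by 1.65 ± 0.31 (adjusted p = 0.00348) and on the RNase Elac1 by 1.54 ± 0.28 (adjusted p = 0.00348). The effect on Fbxl20 was 1.67 ± 0.21 at 3 h and 0.21 ± 0.20 at 6 h, and that on Rrp1b was -0.99 ± 0.22 at 3 h and 0.66 ± 0.22 at 6 h. None of the 5 passed when libraries with the name suffix were dropped, and the count of 36 was 22 without fructose replicate 3 at 3 h and 20 without fructose replicate 4. Ulk1 averaged 86.0 ± 37.1 CPM at 0 h, then 108 ± 45.9, 73.9 ± 11.9 and 75.4 ± 8.48 CPM in fructose livers at 3, 6 and 12 h, and 23.3 ± 6.12, 43.3 ± 15.0 and 77.1 ± 4.27 CPM in water livers (SD, n = 5 each). Actg1 averaged 150.0 ± 238 CPM at 0 h, then 84.7 ± 18.4, 131 ± 49.3 and 75.6 ± 50.5 CPM in fructose livers and 536 ± 148, 131 ± 40.5 and 63.0 ± 34.7 CPM in water livers. Hist1h1c averaged 75.3 ± 101 CPM at 0 h, then 59.9 ± 18.8, 157 ± 60.03 and 52.8 ± 7.33 CPM in fructose livers and 235 ± 78.4, 109.6 ± 21.5 and 45.8 ± 8.23 CPM in water livers. The 0 h means include replicate 2, at 575 CPM for Actg1 and 255 CPM for Hist1h1c, the highest of the 5 for both. Against 0 h, fructose livers at 3 h had 1215 calls (7.20%), 655 higher (3.88%) and 560 lower (3.32%), and water livers had 1868 (11.1%), 903 higher (5.35%) and 965 lower (5.71%); the 2 comparisons share the 0 h libraries.

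**Figure D5:**
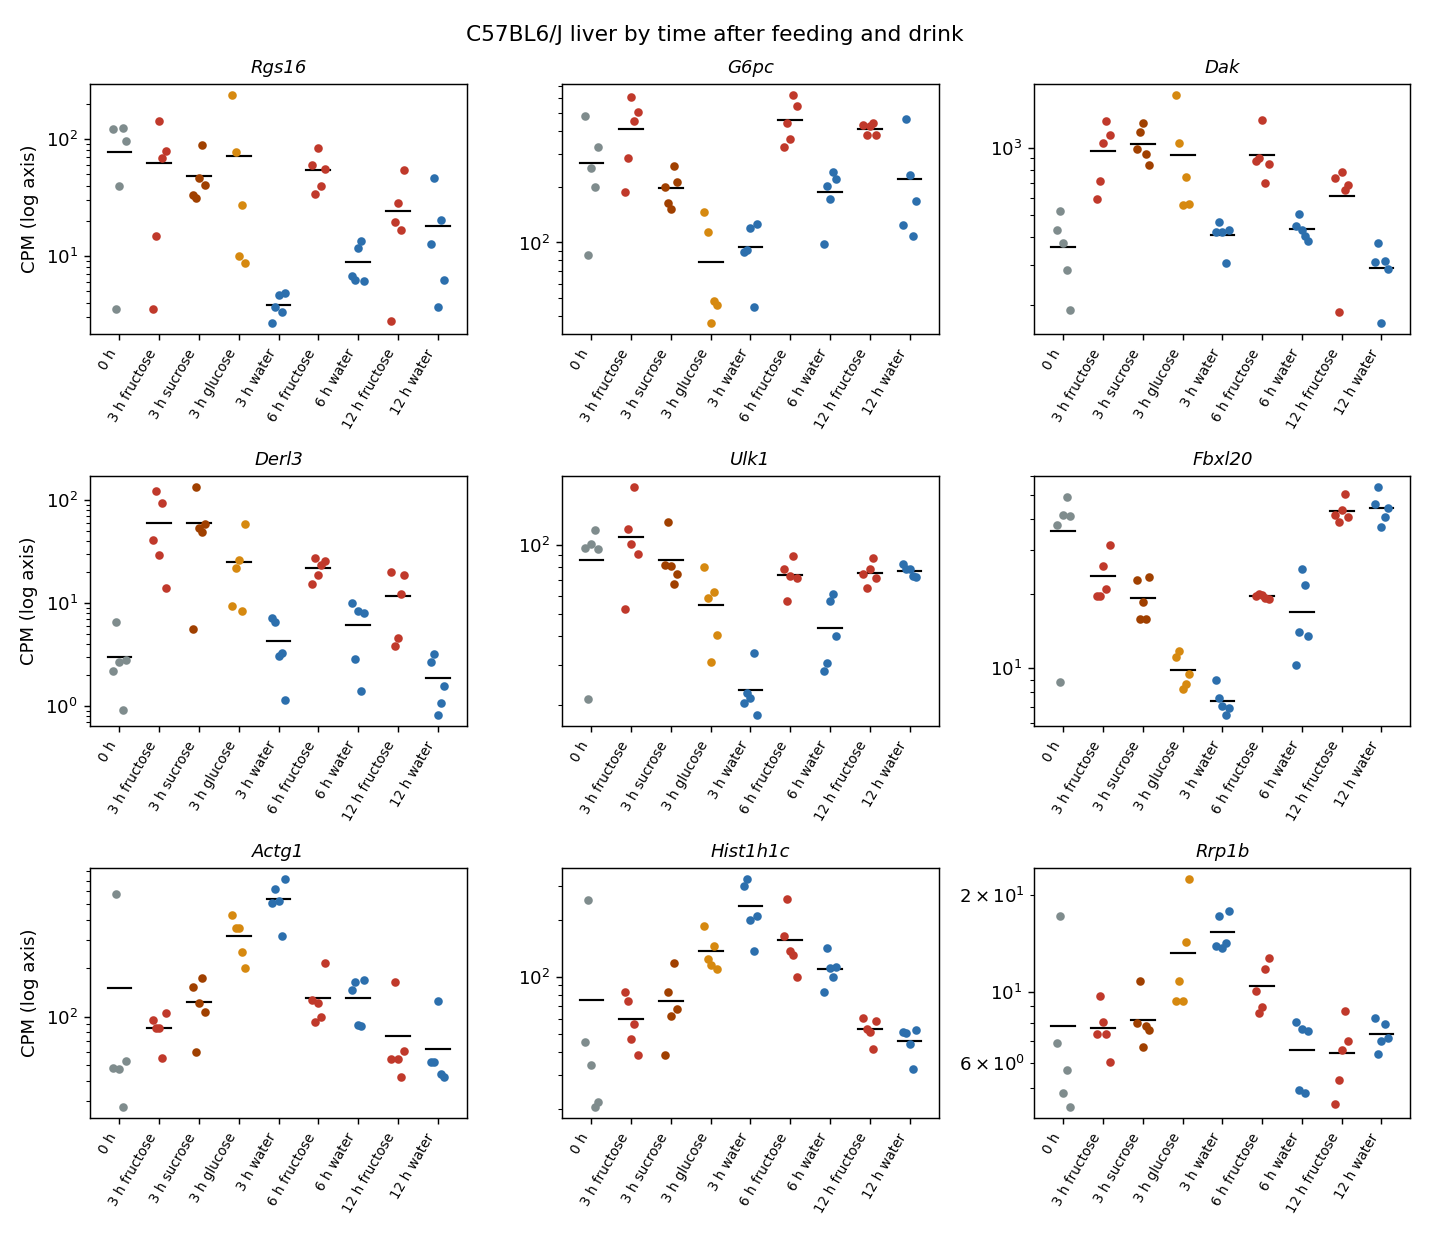
CPM on a log axis of selected genes in C57BL6/J liver at 0, 3, 6 and 12 h with fructose or water, and with sucrose or glucose at 3 h; points are libraries and bars are group means. Ulk1 with fructose averages 108 CPM at 3 h and 75.4 CPM at 12 h.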

How the data were processed

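Liver RNA was sequenced in 128 libraries with paired reads of 150 bp, per the labels. The authors deposited raw read counts per gene and FPKM; per the submitters' processing notes, the tools included CASAVA, STAR 2.5, HTSeq 0.6.1 and DESeq2 with the mm10/GRCm38 build, without the role of each. The deposited FPKM equalled counts divided by gene length and total in 100% of values within a relative tolerance of 0.000001, so tests used counts.

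Counts were fitted with edgeR 4.0.16 in R 4.3.3: 1 quasi-likelihood model with 26 group means over all 128 libraries, filterByExpr, TMM scaling and robust dispersion, with Benjamini-Hochberg adjustment over 16886 genes and a threshold of 0.05. Of 35275 genes, 12908 had no read in the 10 libraries. The SE of a log2 fold change was derived from the F statistic. The scripts were tested on simulated counts. Alternatives were RLE scaling, no filter, fewer libraries, DESeq2 1.42.0, blocks by replicate number and the name suffix as a factor. The libraries left out singly were the 5 fructose and 5 water libraries of C57BL6/J at 3 h, and glucose replicate 1. No 2 libraries agreed within sampling noise (smallest chi-square per degree of freedom 22.66).

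The groups, tests, named genes and 32 gene lists were chosen with earlier results of these data known, 10 of the lists after values were seen. Named genes were a panel of 27, the 10 highest and 10 lowest log2 fold changes among called genes averaging at least 5 CPM, up to 4 called genes with the smallest p per list, and up to 5 per other contrast; a few of these genes are not reported here. The labels do not say whether counting used strand; of the genes named, Acaca, Acsl3, Adsl, Anxa2, Cxcl10, Derl2, Dkc1, Fnip2, Gpi1, Hcn3, Herpud1, Igf1os, Me1, Mrpl19, Oasl1, Phkg2, Pklr, Ppp1r15a, Rgs16, Rrp9, Sesn2, Slc16a5, Slc2a2, Slc5a3, Srebf1, Txnip, Zrsr1 and Zyx overlap another annotated gene, which makes their counts less certain.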

Additional observations from a re-analysis of the deposited data

Results flagged for a closer look

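In the water group at 3 h, replicate 4 stood apart from the other 4 libraries on the log2 CPM scale for 2 named genes: Krt19 at 83.5 CPM against 3.62 to 7.75 CPM, and Dak at 305 CPM against 422 to 468 CPM. Of 84 groups examined for an outlying library on that scale 2 were marked, where chance marks about 1 in 20.

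The fructose effect differed between C57BL6/J and BALB/c for 1 gene and between 6 h and 3 h for 36 genes. For genes named in the text, the 6 h minus 3 h difference in log2 fold change was 1.54 for Elac1, -1.63 for Ypel2, 1.65 for Rrp1b, -1.07 for Zrsr1 and -1.47 for Fbxl20.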

How the results depend on the processing

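The 676 calls between fructose and water became 293 (147 higher, 146 lower) with the 10 libraries fitted alone and 134 (59 higher, 75 lower) in the libraries without the name suffix. With the suffix as a factor they became 875, of which 673 were shared. With 1 library left out at a time they ran from 458 to 680 (251 to 404 higher, 207 to 309 lower), and DESeq2 gave 833, of which 666 were shared. The strain difference of 1 gene became 0 with the replicate block, 3 with the suffix as a factor, 11 with DESeq2 and 0 to 2 with 1 library left out. Here and below, unless named, the library left out was a fructose or water library of C57BL6/J at 3 h. No BALB/c library, 6 h library or other glucose library was left out singly. The 213 genes between fructose and glucose became 88 without a filter on low counts, 54 without the suffix libraries, 320 with DESeq2, 68 without glucose replicate 1 (chosen after seeing the data) and 80 to 156 with 1 library left out; Igfbp1 there ran from -4.70 with a fructose library left out to 1.52 without glucose replicate 1. The 36 genes of the time difference became 60 with the replicate block, 73 with the suffix as a factor, 0 without the suffix libraries, 81 with DESeq2 and 20 to 40 with 1 library left out. Of the 68 named genes called, 46 passed in every fit that left out 1 fructose or water library. Over 101 gene results and their alternatives, 1654 values kept their side of the threshold, 191 no longer passed and 9 newly passed. A further 1, Igfbp1 between fructose and glucose, changed sign and no longer passed. The 1654 include changes of sign in genes that were not called. Slc2a5, for example, had 0.201 in the main fit and -0.021 at lowest with 1 library left out. Except where fewer libraries were fitted, the cause was not tested.

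Replicate numbers were not taken as pairs in the main fit, and whether they mark pairs was not tested. The correlations of same-numbered fructose and water libraries were 0.022, -0.07, 0.207, 0.256 and 0.422. Of the 5 fructose libraries, 3 correlated best with the water library of their own number. With the replicate block, fructose against water gave 854 calls, 674 of them shared. With the block in the 10 libraries alone it gave 913, against 293 there without it. Named genes that passed there but not in the fit of all 128 libraries were Mlxipl (adjusted p = 0.0407), Pklr (0.0299), Txnip (0.0271), Elovl6 (0.0491), Me1 (0.0306) and Cyp7a1 (0.012); Rgs16 (0.115), A1bg (0.0558), Acly (0.0959), Klf10 (0.0758), Anxa2 (0.0524), Igkc (0.503), Igf1os (0.599) and Krt19 (0.64) did not pass there. Each group had 5 libraries of 19840501 reads or more, so genes of low count, such as Acot6, rest on few reads.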

Other observations

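Several lists leaned one way with few calls. Of 76 mitochondrial ribosome genes tested, a list drawn up after values were seen, 55 estimates were negative and 21 positive. The median log2 fold change was -0.07, beside -0.006 for all genes. Mrpl19 (-0.67 ± 0.13, adjusted p = 0.000459) and Mrps2 (-0.69 ± 0.13, adjusted p = 0.000208) fell with fructose. That was 2.63% of the list, where 4.00% of all tested genes were called and 1.84% were called lower. Of 20 interferon response genes 17 estimates were negative, and of 25 genes of amino acid breakdown and the urea cycle 19. Of 32 fatty acid oxidation genes 24 were negative. In that list edgeR called none, DESeq2 called none and 2 were lower at an unadjusted p under 0.05. Its median was -0.076 with all libraries, 0.033 without fructose replicate 2, 0.021 without fructose replicate 4 and -0.241 without fructose replicate 3, so its direction depended on single livers. Growth arrest genes, also listed after values were seen, went both ways: the cyclin Ccng2 (1.02 ± 0.26, adjusted p = 0.0111) and the phosphatase Ppm1d (1.18 ± 0.18, adjusted p = 7.43e-06) rose while Cdkn1a fell. Of 14 Kruppel-like factors tested, Klf10 and Klf11 rose and none fell. Of 23 liver hormone genes Fgf21 alone was called, which is 4.35% of them beside 4.00% of all tested genes.

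At 0 h, after the fast, the level of several fructose-responsive genes varied between livers. Rgs16 had 122, 3.55, 40.0, 123 and 95.2 CPM in the 5 livers at 0 h, against 2.71, 3.66, 4.64, 3.31 and 4.89 CPM in water livers at 3 h. Replicate 2 at 0 h was the lowest for Rgs16 and, at 21.2 CPM, for Ulk1, whose other 0 h livers had 95.5 to 116 CPM; it was the highest for Actg1 and Hist1h1c.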
